A study of Oryza sativa with 17 samples.

Results

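Fe-sprayed grains of black rice at 10 days after flowering (DAF) were compared with Fe-sprayed grains of red rice at 15 DAF. The study calls these days the veraison of each variety, the time at which the grain takes on colour. It describes black rice grains as wholly black by 10 DAF, and red rice grains as green-yellow at 15 DAF and red only later. It also reports that anthocyanin, proanthocyanidin and total flavonoid contents were highest at 10 DAF in both varieties. The groups were thus not matched for visible colour or for time since that peak. The comparison rests on 6 of the 17 RNA libraries of the series, 3 from black rice and 3 from red rice, chosen by variety, day and treatment as labelled. The black variety was Nanheinuo (BR) and the red variety Yuhongdao 5815 (RR), both grown in pails, with a set of pails as a biological replicate. Leaves of the Fe groups were sprayed with iron(II) sulfate heptahydrate, and leaves of the control groups with deionized water. All sprays also held nicotinamide and Tween 80. The labels do not give the Fe concentration of these libraries, while the study's methods name the lower of its concentrations for the DEGs of its gene network. BR was sampled at 10 DAF and RR at 15 DAF, so variety and day after flowering cannot be told apart in any difference described here. Control libraries of the same days (3 of BR, and replicates 2 and 3 of RR) held the same contrast without Fe. They are other libraries than those of the Fe contrast, but entered the same model and so its estimate of the spread. A grain holds several tissues, so a lower share of a tissue and less RNA per cell of it cannot be told apart.

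Rice grain colour comes from flavonoids made in the outer layers of the caryopsis. Phenylalanine ammonia-lyase (PAL) and 4-coumarate-CoA ligase (4CL) feed the general phenylpropanoid pathway. Chalcone synthase (CHS), chalcone isomerase (CHI) and flavanone 3-hydroxylase (F3H) build the flavonoid skeleton, and anthocyanidin synthase (ANS) makes the coloured anthocyanidins of black grain. Red grain is known for proanthocyanidins, and the study cites earlier work in red rice that tied higher F3H and ANS expression to more of them. During filling, the starchy endosperm is loaded with starch and storage proteins, and the embryo and aleurone later gain transcripts of seed maturation and desiccation tolerance.

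Expression was given as FPKM (a count of fragments divided by the length of the transcript and the size of the library), and 17138 of 32657 genes reached an FPKM of at least 1 in 2 or more of the 6 Fe libraries and were tested. Of these, 831 reached it in no RR Fe library and 3073 in no BR Fe library. FPKM sums of the 6 libraries lay between 639592 and 679074, and 22201 to 23671 genes had a value above 0. The read depth is unknown. RR Fe replicate 1 stood apart from its group. Over the tested genes it correlated at 0.825 and 0.86 with RR Fe replicates 2 and 3, but at 0.944 to 0.968 with the RR controls of the same day. RR Fe replicates 2 and 3 correlated at 0.952 with each other and at 0.846 to 0.933 with the RR libraries of 20 DAF. The BR Fe libraries correlated at 0.945 to 0.976 among themselves. The 13 storage protein and seed allergen genes alone held 38.6%, 42% and 40.4% of the summed FPKM in the BR Fe libraries, against 24.6%, 7.34% and 7.75% in RR Fe replicates 1, 2 and 3. FPKM is a share of the library, so a smaller share of these transcripts goes with higher values of the others. The median log2 change of all tested genes, BR minus RR on the log2(FPKM + 1) scale, was -0.83.

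Genes with a limma adjusted p below 0.01 and a change of 1.5-fold or more were taken as differentially expressed (DEGs). They made up 6243 genes (36.4%), of which 961 were higher in BR than in RR under Fe (5.61% of all tested) and 5282 lower (30.8%). With each library centred on its median, which takes out most of the shift of -0.83, the split was 2928 higher and 2092 lower (17.1% and 12.2%, or 29.3% in all), and with quantile normalization it was 2743 and 2551 (16% and 14.9%, or 30.9% in all). All 961 of the higher genes and 2044 of the lower ones passed in the same direction under all 3 scalings, that is as deposited, centred and quantile normalized. The number depended on which RR libraries were used. Without RR Fe replicate 1 it was 1477 higher and 8268 lower, without RR Fe replicate 2 it was 478 and 2197, and without RR Fe replicate 3 it was 155 and 786. The fit with RR Fe replicate 1 as the only RR library held no spread of its own for that group. Its calls rested on the spread of the other groups, and are to be read with that limit. In all 6 fits that left out 1 Fe library, 155 genes were higher and 786 lower, and 155 and 781 of them also passed under all 3 scalings. The BR libraries lay above all RR libraries for 1793 genes (10.5% of those tested) and below all of them for 9261 (54%).

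**Figure D1:**
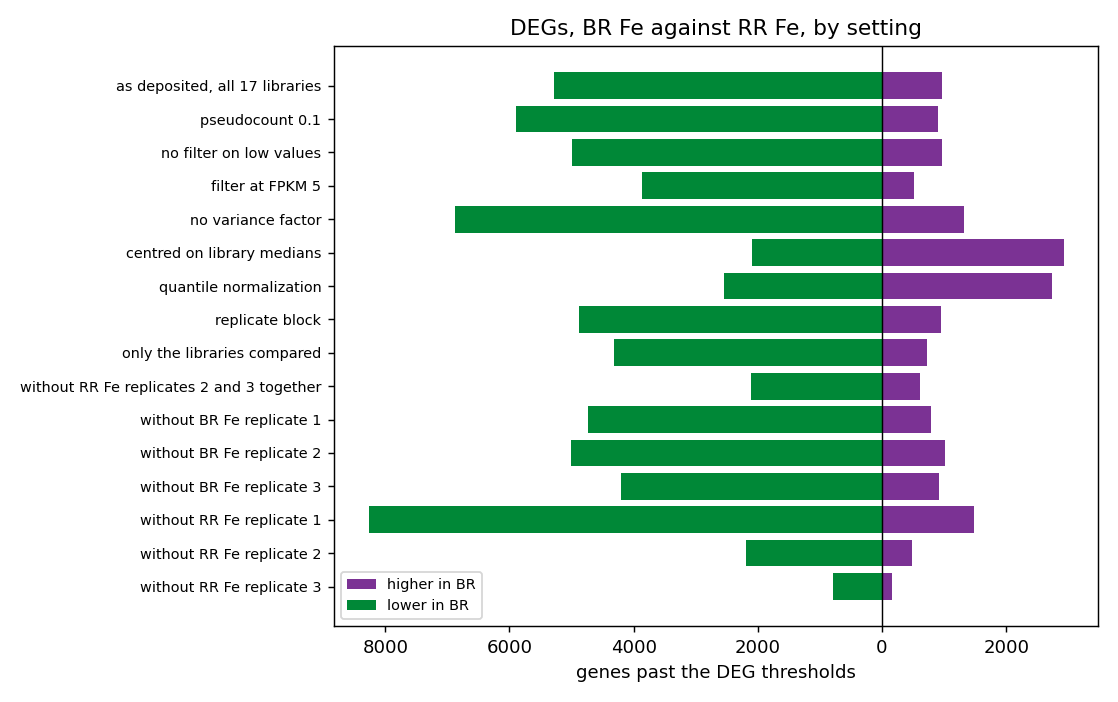
Number of genes past the DEG thresholds in BR Fe against RR Fe grains, with genes higher in BR to the right of 0 and genes lower in BR to the left, for the FPKM as deposited and each alternative. The bars run from 155 higher and 786 lower without RR Fe replicate 3 to 1477 higher and 8268 lower without RR Fe replicate 1, and the 2 scalings turn the balance of the sides.

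Those genes of the flavonoid branch that could be matched were mostly higher in BR, several of them by a wide margin. Genes for dihydroflavonol reductase, anthocyanidin reductase and leucoanthocyanidin reductase were not among the matched genes. OsCHS1 (LOC4350636), the chalcone synthase gene that starts the branch, had 274, 464 and 262 FPKM in BR Fe replicates 1, 2 and 3, against 3, 1.43 and 1.04 FPKM in RR Fe replicates 1, 2 and 3. No RR library came near the BR libraries, and RR Fe replicate 1 lay with the other RR libraries here. The log2 change of OsCHS1 was 6.9 (SE 0.559, limma adjusted p = 1.35e-07). The ANS gene LOC4325716 had 104, 119 and 142 FPKM in BR and was listed at 0 in RR Fe replicate 1, with 0.569 and 0.446 FPKM in RR Fe replicates 2 and 3. Its log2 change was 6.53 (SE 0.499, limma adjusted p = 6.2e-08). A second gene of this name, OsANS2 (LOC4341576), was also higher in BR, though at a low level. It had 4.35, 4.78 and 6.66 FPKM in BR, against 0, 0.014 and 0 FPKM in RR (log2 change 2.62, limma adjusted p = 2.38e-05).

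F3H (LOC9270463) stood at 109, 156 and 115 FPKM in BR, against 2.87, 0.539 and 2.44 FPKM in RR, a log2 change of 5.53 (SE 0.388, limma adjusted p = 2.28e-08). The CHI gene LOC4351321 had 35.4, 40.3 and 47.6 FPKM in BR, against 0.609, 0.543 and 0.306 FPKM in RR (log2 change 4.82, limma adjusted p = 4.18e-07). The other CHI gene, LOC4349607, had 27.6, 28.5 and 30.1 FPKM in BR, against 0.668, 0.998 and 0.334 FPKM in RR (log2 change 4.18, limma adjusted p = 2.29e-05). The groups were far apart for OsCHS1, ANS, F3H and these CHI genes, and every RR library had an FPKM of 3 or less. Cfi (LOC4334588), a chalcone isomerase gene by its name, was different. It had 31.7, 42.7 and 28.2 FPKM in BR, against 12.1, 0.572 and 13.7 FPKM in RR, and did not pass (log2 change 2.37, limma adjusted p = 0.0808). The gene LOC4332919, named F3'5'H for the hydroxylase of the flavonoid B ring, had 6.83, 5.33 and 5.47 FPKM in BR, against 0, 0.113 and 0.0296 FPKM in RR (log2 change 2.71, limma adjusted p = 1.97e-06). Enzyme names of genes given by LOC number alone are those of the study.

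The general phenylpropanoid genes upstream were mixed. The most abundant of them did not separate the varieties. LOC4330034, which the study names PTAL, a lyase that acts on phenylalanine and tyrosine, had 116, 140 and 125 FPKM in BR, against 64.8, 177 and 104 FPKM in RR (log2 change 0.26, limma adjusted p = 0.62). The PAL gene LOC4330036 had 93.7, 144 and 106 FPKM in BR, against 41.6, 188 and 167 FPKM in RR (log2 change 0.04, limma adjusted p = 0.949). For both genes the groups overlapped, with RR Fe replicate 1 the lowest library. The PAL genes LOC4330037 (5.02, 2.71 and 3.68 FPKM in BR, against 0.0206, 0.315 and 0.0527 FPKM in RR) and LOC4338861 (4.75, 3.53 and 6.41 FPKM in BR, against 0.136, 0.0909 and 1.58 FPKM in RR) were higher in BR at low levels, with limma adjusted p of 0.000395 and 0.000425.

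Among the 4CL genes, Os4CL2 (LOC4330407) was higher in BR, with 11.5, 19.6 and 13.2 FPKM there, against 0.673, 1.82 and 0.545 FPKM in RR (log2 change 2.99, limma adjusted p = 1.49e-05). Os4CL3, Os4CL4 and Os4CL5 went the other way or nowhere. Os4CL4 had 6.85, 8.5 and 6.52 FPKM in BR, against 10.6, 55.4 and 15.1 FPKM in RR (log2 change -1.41, limma adjusted p = 0.019), a call that was lost with centred values (0.395) and without RR Fe replicate 2 or 3. Os4CL3 had 8.74, 9.48 and 8.98 FPKM in BR, against 4.48, 42.9 and 18.9 FPKM in RR, and Os4CL5 had 2, 3.41 and 2.58 FPKM in BR, against 1.22, 18.8 and 3.37 FPKM in RR. Neither passed (limma adjusted p = 0.317 and 0.355). In all 3 genes RR Fe replicate 2 was the highest library.

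Genes of the lignin and ester branches also went both ways. OsCAD3 (LOC4348690) and OsCAD9 (LOC9266669) both belong to the cinnamyl alcohol dehydrogenases, which reduce the aldehyde precursors of lignin. OsCAD3 had 18, 28 and 17.9 FPKM in BR, against 0.521, 0 and 0.66 FPKM in RR (log2 change 4, limma adjusted p = 2.73e-06). OsCAD9 had 0.0764, 0.131 and 0.046 FPKM in BR, against 8.6, 9.14 and 10.9 FPKM in RR (log2 change -3.28, limma adjusted p = 4.31e-07). These 2 members of a family thus had opposite patterns with no overlap, in each scaling. OsCAD1 overlapped (16.9, 11.5 and 19.2 FPKM in BR, against 7.21, 33.6 and 23.5 FPKM in RR). The hydroxycinnamoyltransferase gene OsHCT1 had 22.7, 23.7 and 18.9 FPKM in BR, against 50.6, 75.5 and 76.8 FPKM in RR (log2 change -1.57, limma adjusted p = 0.00038), while OsHCT2 did not pass (limma adjusted p = 0.924). Of the methyltransferases, COA20 had 22.7, 16.9 and 19.8 FPKM in BR, against 1.85, 0.0871 and 2.07 FPKM in RR (log2 change 3.28, limma adjusted p = 5.64e-05). OsCOMT had 53, 54.5 and 49.7 FPKM in BR, against 29.9, 4.14 and 5.72 FPKM in RR (log2 change 2.38, limma adjusted p = 0.00203), and lost its call without RR Fe replicate 3 and with RR Fe replicate 1 alone. ROMT-17 did not pass (limma adjusted p = 0.32).

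In all, 38 phenylpropanoid and flavonoid genes were in the table and 26 were tested. At an adjusted p below 0.05, 14 were higher in BR and 3 lower, and 9 did not pass. Of all tested genes 8.62% were higher and 46.1% lower at this threshold (54.7% in all), which became 24.3% and 18.5% with centred values (42.9% in all) and 22.8% and 23% with quantile normalization (45.8% in all). The median log2 change of the 26 genes was 2.02, which is 2.85 above that of all genes. The 14 higher calls and 2 of the 3 lower ones held in all 3 scalings, and PTAL and Cfi were also higher with centred values. Without RR Fe replicate 3, 12 were higher and 2 lower. Of the 26 genes, 7 reached the minimum FPKM in no RR Fe library, and 2 in no BR Fe library, so the counts describe the genes that passed the filter. OsCHS1, the ANS, F3H and both CHI genes named by the study, Os4CL2, OsCAD3 and COA20 kept their calls with any 1 of the 6 libraries left out and under the 9 other alternatives.

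**Figure D2:**
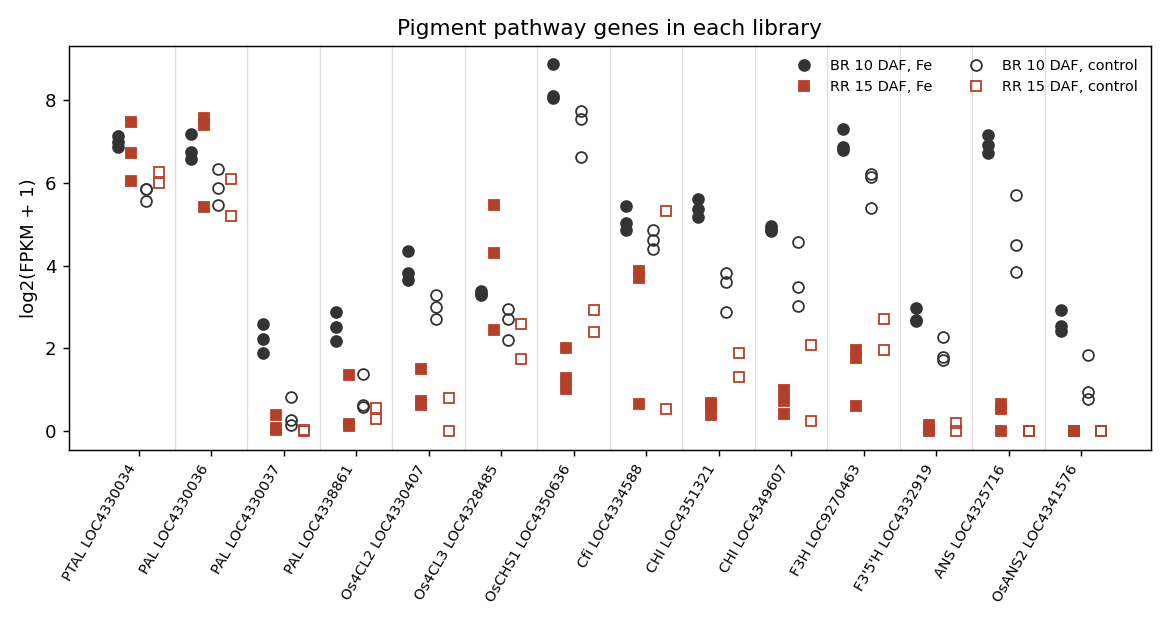
log2(FPKM + 1) of 14 pigment pathway genes, ordered by their step in the pathway, with a point for each library: filled for Fe, open for control, circles for BR at 10 DAF and squares for RR at 15 DAF. OsCHS1, ANS, F3H and the CHI genes LOC4351321 and LOC4349607 have all filled circles above all filled squares, whereas PTAL LOC4330034 and PAL LOC4330036 overlap.

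Over all genes, the largest change towards BR was that of NewGene_4486, a gene of the authors' assembly with no annotation, which had 275, 428 and 285 FPKM in BR, against 2.46, 0.79 and 0.63 FPKM in RR (log2 change 7.22, limma adjusted p = 1.59e-09). OsCHS1 came next. The named genes with the largest changes towards BR and no overlap between groups were OsCHS1, the ANS gene, mfs1, F3H, both CHI genes, GLUA-3, OsGER3, OsISA1 and OsCAD3. mfs1 (LOC4326904) had 77, 77.8 and 96.1 FPKM in BR, against 0.209, 0.279 and 0.158 FPKM in RR (log2 change 6.12, limma adjusted p = 3.57e-06). The germin-like gene OsGER3 had 1950, 4020 and 2410 FPKM in BR, against 88.2, 213 and 113 FPKM in RR (log2 change 4.36, limma adjusted p = 0.000215).

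The largest changes towards RR were those of 2 more unannotated assembly genes. NewGene_3345 had 0.0543, 0 and 0 FPKM in BR, against 20900, 3610 and 3720 FPKM in RR, and NewGene_3346 had 0, 0.521 and 0.541 FPKM in BR, against 9470, 2420 and 2190 FPKM in RR. Both were near 0 in all BR libraries, among the high genes of all RR libraries, and highest in RR Fe replicate 1 (log2 changes -12.65 and -11.44, limma adjusted p = 2.57e-10 and 1.45e-10). Of the assembly's new genes, 1565 were tested, and 127 were DEGs higher in BR and 499 lower. The lower share was close to the 30.8% of all tested genes, and the higher share was above their 5.61%. Among these new DEGs, 62 of the higher ones were listed at 0 in all RR Fe libraries and 96 of the lower ones in all BR Fe libraries. Reads of both varieties were aligned to the same reference. For any gene near 0 in only 1 variety, a lack of expression and a lack of aligned reads cannot be told apart.

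Named genes with the largest changes towards RR were OsELA1, RBTI, the catalase gene CAT-A, the dehydrin gene RAB21, FOR1, OsHsp17.9A, LTP, OsMT-II-1a, OsTIP2;2 and OsHsp18.6. CAT-A had 0.371, 0.243 and 0 FPKM in BR, against 7.29, 795 and 267 FPKM in RR (log2 change -6.66, limma adjusted p = 4.33e-05). OsELA1 had 0, 0.543 and 0 FPKM in BR, against 19.6, 664 and 838 FPKM in RR (log2 change -7.61, limma adjusted p = 0.000102). In both genes RR Fe replicate 1 lay between BR and the other RR libraries. RBTI, a trypsin inhibitor gene, had the reverse order within RR, with 0.0232, 0.132 and 0.0437 FPKM in BR, against 1030, 24 and 65.7 FPKM in RR (log2 change -6.81, limma adjusted p = 0.00905), and it lost its call without RR Fe replicate 3 (0.0969). The lipid transfer protein gene LTP had 146, 537 and 169 FPKM in BR, against 4890, 18200 and 22100 FPKM in RR (log2 change -5.72, limma adjusted p = 0.000217). The metallothionein gene OsMT-II-1a had 48.4, 208 and 28.1 FPKM in BR, against 2140, 2920 and 5940 FPKM in RR (log2 change -5.64, limma adjusted p = 9.74e-05).

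Several storage protein and starch genes of the endosperm were higher in BR, and here RR Fe replicate 1 lay between BR and the other RR libraries or among the BR libraries. GLUA-3 (LOC4333164), a glutelin gene, had 22500, 16400 and 29000 FPKM in BR, against 4090, 570 and 482 FPKM in RR (log2 change 4.41, limma adjusted p = 0.000119). GLUB-4 had 15500, 16300 and 19900 FPKM in BR, against 5130, 662 and 442 FPKM in RR, and GLUB-5 had 20000, 21100 and 25200 FPKM in BR, against 7310, 908 and 635 FPKM in RR (log2 changes 3.9 and 3.77, limma adjusted p = 0.000549 and 0.000794). All 3 genes had no overlap, with RR Fe replicate 1 several times above the other RR libraries. The glutelin genes are close copies, so reads may have been divided between them, and their single values are uncertain. The prolamin gene LOC4342688, at 51400, 72100 and 51200 FPKM in BR, against 52100, 17000 and 18500 FPKM in RR, overlapped and did not pass (limma adjusted p = 0.314). Of the 13 genes of the list, all tested, 6 were higher in BR, 0 lower and 7 not called. The higher and lower shares were 46.2% and 0%, where those of all genes were 8.62% and 46.1% (24.3% and 18.5% with centred values). The median log2 change was 1.91, or 2.74 above that of all genes. With centred values 9 were higher, with quantile normalization 5, without RR Fe replicate 2 or 3 it was 3 or 2, and with RR Fe replicate 1 alone it was 1.

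OsISA1 (LOC4346068), the isoamylase gene whose enzyme trims branches in starch synthesis, had 470, 265 and 368 FPKM in BR, against 233, 7.15 and 4.43 FPKM in RR (log2 change 4.04, SE 0.78, limma adjusted p = 0.00049), a call lost with RR Fe replicate 1 as the only RR library (0.323). OsGBSS1 (LOC4340018), the granule-bound starch synthase gene that makes amylose, had 2670, 2200 and 2440 FPKM in BR, against 2110, 189 and 200 FPKM in RR (log2 change 2.49, limma adjusted p = 0.00366). RR Fe replicate 1 lay just under the BR libraries and the other RR libraries far under them. The soluble starch synthase gene ALK overlapped through RR Fe replicate 1 (180, 167 and 127 FPKM in BR, against 202, 19.7 and 22.9 FPKM in RR), as did OsAGPS2 for a subunit of ADP-glucose pyrophosphorylase (1950, 1690 and 2110 FPKM in BR, against 1730, 460 and 308 FPKM in RR). SS1 had 408, 446 and 339 FPKM in BR, against 332, 155 and 125 FPKM in RR. Of 7 tested starch synthesis genes, 5 were higher in BR, 0 lower and 2 not called (SSII-1 and the branching enzyme gene Q-enzyme). The median log2 change was 1.61, or 2.44 above that of all genes. The higher and lower shares were 71.4% and 0%, where those of all genes were 8.62% and 46.1% (24.3% and 18.5% with centred values). All 7 were higher with centred values. The count was 1 without RR Fe replicate 2 or 3 and 0 with RR Fe replicate 1 as the only RR library.

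Starch breakdown genes differed in direction. OsDPE1 and the gene named D-enzyme code for disproportionating enzymes that rearrange glucans. OsDPE1 had 2.21, 1.49 and 0.929 FPKM in BR, against 28.4, 16.8 and 31 FPKM in RR, and D-enzyme had 2.57, 3.69 and 1.53 FPKM in BR, against 25.6, 76.2 and 55.9 FPKM in RR (log2 changes -3.36 and -3.81, limma adjusted p = 2.59e-05 and 6.71e-05). GWD3 of the glucan, water dikinases had 2.43, 2.52 and 2.37 FPKM in BR, against 12.4, 17.4 and 19.8 FPKM in RR. These 3 genes did not overlap, kept their calls in all alternatives run on them, and had RR Fe replicate 1 with the other RR libraries. The gene named Maltase was higher in BR (1140, 1250 and 1100 FPKM in BR, against 1630, 211 and 231 FPKM in RR, limma adjusted p = 0.0408), overlapped, and kept its call in only 1 of the 6 fits without 1 library. Over the list, 1 gene was higher, 3 were lower and 3 were not called. The higher and lower shares were 14.3% and 42.9%, where those of all genes were 8.62% and 46.1%.

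Embryo and aleurone genes were lower in BR. RAB21 (LOC4350454) had 21.7, 109 and 16.4 FPKM in BR, against 1120, 2700 and 5840 FPKM in RR (log2 change -6.21, SE 0.95, limma adjusted p = 6.97e-05). The late embryogenesis abundant genes OsLEA17 (16.6, 46.5 and 11 FPKM in BR, against 340, 366 and 787 FPKM in RR) and OsLEA19 (63.9, 203 and 50.9 FPKM in BR, against 1340, 2310 and 3570 FPKM in RR) had log2 changes of -4.42 and -4.66 (limma adjusted p = 0.000165 and 0.000271). The oleosin gene OLE18, for a coat protein of oil bodies, had 205, 344 and 132 FPKM in BR, against 1420, 1800 and 4660 FPKM in RR. No library of either group crossed over in these genes, and BR Fe replicate 2 was the highest BR library in each. All 12 genes were tested, and 11 were lower in BR, 0 higher and 1 not called. The lower share was 91.7%, where 46.1% of all genes were lower (18.5% with centred values). The exception, OsDhn1, had 7.65, 9.58 and 2.31 FPKM in BR, against 2.04, 1.09 and 1.19 FPKM in RR (limma adjusted p = 0.0952). The median log2 change was -3.74, or -2.91 relative to all genes, and 8 of the 11 lower calls held in all 3 scalings, with OsDhn1 higher with centred values. Without RR Fe replicate 3, 5 genes were lower. The summed level of the list was 815 to 1720 FPKM in BR and 7650 to 22600 FPKM in RR, and RAB16D was listed at 0 in all 3 BR libraries.

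Heat shock genes had the same direction. OsHsp17.9A (LOC4332357), a small heat shock protein gene, had 34.5, 39.4 and 19.9 FPKM in BR, against 666, 2830 and 2490 FPKM in RR (log2 change -5.75, SE 0.701, limma adjusted p = 9.27e-06). HSP16.9C had 1.16, 2.7 and 0.432 FPKM in BR, against 39.4, 48.2 and 85.1 FPKM in RR, and CLPB1, a gene for a chaperone that dissolves protein aggregates, had 12, 13.2 and 6.94 FPKM in BR, against 160, 155 and 227 FPKM in RR (log2 changes -4.62 and -3.98). RR Fe replicate 1 was the lowest RR library for OsHsp17.9A and HSP16.9C, but the groups were well apart for all 3 genes. Of 22 tested genes, 18 were lower in BR (81.8%, where 46.1% of all genes were), 0 higher and 4 not called. The median log2 change was -3.04, or -2.21 relative to all genes. The lower calls that held in all 3 scalings were 12, and 12 genes were lower without RR Fe replicate 3. The 2 genes with positive changes, OsHsp22.3 and OsHsp17.9B, did not pass, but were higher in BR with centred values (0.00625 and 0.00473).

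Markers of green tissue were not called. Of 12 tested photosynthesis genes 0 passed in limma at an adjusted p below 0.05, and 0 at an unadjusted one, while 5 were higher in BR with centred values. Of these 12 genes, 6 reached the minimum FPKM in no RR Fe library, while all 12 reached it in at least 1 BR Fe library. The list summed to 116, 17.1 and 40.7 FPKM in BR, against 11, 20.8 and 25 FPKM in RR. BR Fe replicate 1 held most of that level, LHCP was listed at 0 in RR Fe replicate 2, and PSBW in RR Fe replicate 1. The levels of storage protein, embryo and green tissue markers thus moved with the groups or with single libraries, and their part in the other differences was not tested.

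**Figure D3:**
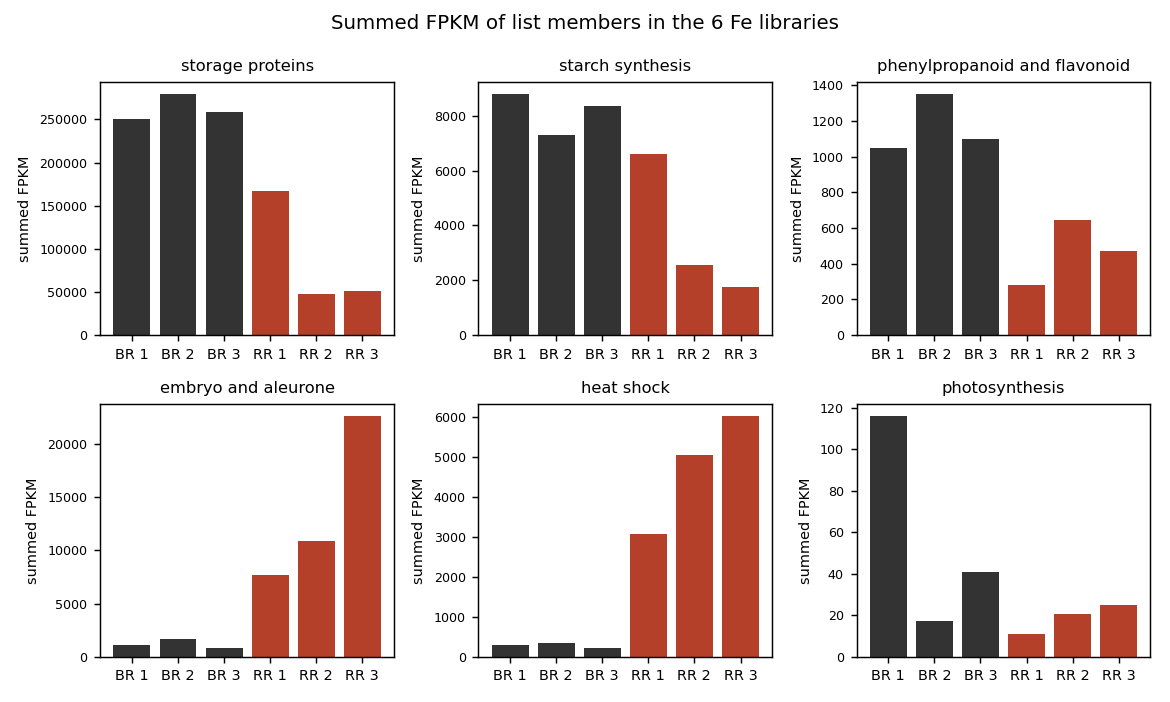
Summed FPKM of all members of 6 gene lists in each Fe library, with bars from 0, the 3 BR replicates to the left and the 3 RR replicates to the right, and a scale of its own in each panel. Storage protein and starch synthesis sums of RR replicate 1 lie between BR and the other RR replicates, while embryo and heat shock sums are low in all BR replicates and the photosynthesis sum is highest in BR replicate 1.

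MADS-box factors, many of which set floral and ovule organ identity, were more often higher than lower in BR. OsMADS24 (LOC4347517) had 55.6, 68.9 and 38 FPKM in BR, against 3.8, 5.3 and 2.51 FPKM in RR (log2 change 3.5, SE 0.341, limma adjusted p = 1.08e-06). OsMADS45 had 40.1, 53.6 and 26.1 FPKM in BR, against 4.12, 4.23 and 2.47 FPKM in RR (log2 change 3.12). The ovule identity gene OsMADS13 had 15.9, 14.1 and 4.82 FPKM in BR, against 0.0637, 0.156 and 0.565 FPKM in RR (log2 change 3.2), and OsMADS58 had 9.29, 11.8 and 6.71 FPKM in BR, against 0.184, 0.763 and 0.132 FPKM in RR (log2 change 2.92). All 3 RR libraries were far below BR in these genes. For OsMADS13 and OsMADS58 they lay under the FPKM minimum of 1, at 0.0637 to 0.565 and 0.132 to 0.763 FPKM. Of 19 tested factors, 9 were higher, 2 lower and 8 not called, with a median log2 change of 0.84, or 1.67 above that of all genes. The higher and lower shares were 47.4% and 10.5%, where those of all genes were 8.62% and 46.1%. Of the 19, 5 reached the minimum FPKM in no RR Fe library, among them OsMADS13 and OsMADS58, and 2 in no BR Fe library. The counts thus describe the factors that passed the filter. The 9 higher calls held in all 3 scalings and the 2 lower ones (OsMADS30 and OsMADS57) did not. Without RR Fe replicate 3, 5 were higher and 0 lower.

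Genes of sucrose cleavage and sugar transport were divided. Sucrose synthase genes, whose enzyme splits imported sucrose, included OsSUS3 with 62.3, 22.8 and 42 FPKM in BR, against 5.04, 0.936 and 0.497 FPKM in RR (log2 change 3.95, limma adjusted p = 0.000355). OsSUS2 had 252, 162 and 212 FPKM in BR, against 131, 17.1 and 13.6 FPKM in RR (log2 change 2.66, limma adjusted p = 0.000605), and its call was lost with RR Fe replicate 1 alone. The cell wall invertase gene OsCIN1 had 8.04, 10.2 and 4.52 FPKM in BR, against 0, 3.04 and 0.629 FPKM in RR (limma adjusted p = 0.0022), and the neutral invertase gene OsNIN1 had 1.72, 2.01 and 1.8 FPKM in BR, against 5.39, 9.49 and 9.93 FPKM in RR (limma adjusted p = 0.000603). Of 12 tested genes of this list, 4 were higher, 2 lower and 6 not called. The higher and lower shares were 33.3% and 16.7%, where those of all genes were 8.62% and 46.1%. With centred values 8 were higher and 1 lower, and without RR Fe replicate 3 it was 2 and 1.

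Of 13 sugar transporter genes, 2 were higher in BR and 5 lower (15.4% and 38.5%, where 8.62% and 46.1% of all genes were). With centred values it was 5 and 4, and without RR Fe replicate 3 it was 1 and 2. The SWEET genes, for channels that let sugars out of cells, stood on both sides. OsSWEET1a had 0.307, 1.38 and 0.262 FPKM in BR, against 24.8, 86.7 and 64.1 FPKM in RR (log2 change -5.07, limma adjusted p = 3.85e-06). Os8N3, also of the SWEET family, had 95.3, 112 and 63 FPKM in BR, against 65.6, 0.776 and 0.935 FPKM in RR (log2 change 3.86, limma adjusted p = 0.000446), overlapping through RR Fe replicate 1. The sucrose transporter gene OsSUT1 had 11.1, 11.8 and 7.68 FPKM in BR, against 42.5, 102 and 113 FPKM in RR (log2 change -2.86, limma adjusted p = 6e-04). In the sugar kinase list, the fructokinase gene OsFKII was higher in BR (44.6, 33.4 and 36.4 FPKM in BR, against 12.5, 15.1 and 2.15 FPKM in RR). Of the 10 genes of that list 1 was higher and 4 lower (40%, against 46.1% of all genes), which became 3 and 2 with centred values, 1 and 7 without RR Fe replicate 1, 1 and 2 without RR Fe replicate 2 and 1 and 1 without RR Fe replicate 3. Of 17 beta-glucosidase genes, 2 were higher and 8 lower (47.1%, close to the 46.1% of all genes). With centred values the beta-glucosidase split was 5 and 6, and without RR Fe replicate 3 it was 1 and 5. Of 7 trehalose phosphate phosphatase genes 2 were higher and 1 lower (28.6% and 14.3%, where 8.62% and 46.1% of all genes were). This became 1 and 0 without RR Fe replicate 2, and 0 and 0 without RR Fe replicate 3.

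Since these grains were sprayed with Fe, genes of iron and metal handling were read as a list. Of 65 in the table, 41 were tested, and 5 were higher in BR, 16 lower and 20 not called. The higher and lower shares were 12.2% and 39%, where those of all genes were 8.62% and 46.1%. The median log2 change of -0.64 was close to the -0.83 of all genes, and all 5 higher calls but 6 of the 16 lower ones held in all 3 scalings. With centred values 11 were higher and 6 lower. The split was 5 and 6 without RR Fe replicate 2, and 0 and 5 without RR Fe replicate 3. OsVIT1, for a transporter that loads iron into vacuoles, had 2.6, 6.79 and 2.16 FPKM in BR, against 0.589, 0.24 and 0.297 FPKM in RR (log2 change 1.71, limma adjusted p = 0.00275). Its relative OsVIT1.2 had 1.63, 0.952 and 1.59 FPKM in BR, against 3.06, 30 and 32.2 FPKM in RR (log2 change -2.77, limma adjusted p = 0.00074). These vacuolar transporter genes did not overlap and were called in opposite directions in all 3 scalings, and OsVIT1.2 in RR Fe replicate 1 was near BR. The other higher genes were OsYSL13, osysl12, osysl16 and OsZIP1, all at 4.86 FPKM or less.

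Among the lower genes, OsHMA5 (LOC4336625), of the heavy metal ATPases, had 2.26, 2.85 and 2.36 FPKM in BR, against 13, 47.8 and 41.3 FPKM in RR (log2 change -3.14, limma adjusted p = 5.83e-06). The metal tolerance protein gene OsMTP3 had 1.35, 2.02 and 1.07 FPKM in BR, against 14.2, 12.7 and 13.6 FPKM in RR (log2 change -2.56, limma adjusted p = 1.88e-05), with the 3 RR libraries nearly alike. OsIRO2, a regulator of the response to iron deficiency, had 3.73, 6.06 and 4.67 FPKM in BR, against 12.5, 25.7 and 31.5 FPKM in RR (log2 change -1.98, limma adjusted p = 0.000446). OsZIP10 had 0.518, 2.36 and 0.55 FPKM in BR, against 10.6, 16.7 and 24.1 FPKM in RR (log2 change -3.12). OsVIT1 and OsVIT1.2 lie outside the rule for named genes and were chosen after their values were seen.

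Cell cycle, replication and histone genes were mostly lower in BR, with 21 of 35 lower, 1 higher and 13 not called. The lower share was 60%, where 46.1% of all genes were lower. The median log2 change was -1.32, which is -0.49 relative to all genes. With centred values 14 were lower and 7 higher. The single higher gene, H2B.3 of histone H2B, had 34.4, 19.8 and 31.3 FPKM in BR, against 1.3, 3.05 and 2.76 FPKM in RR (log2 change 3.14). H2B.5 had 9, 6.37 and 7.89 FPKM in BR, against 34.2, 164 and 108 FPKM in RR (log2 change -3.3), so close relatives differed in direction. Among abscisic acid genes, 11 of 20 were lower and 1 higher, against 7 and 6 with centred values and 5 and 0 without RR Fe replicate 3. OsVP1, a seed maturation regulator of the abscisic acid response, had 1.38, 2.93 and 0.821 FPKM in BR, against 24.1, 57.7 and 46.3 FPKM in RR (log2 change -4, limma adjusted p = 1.49e-05). Of 10 gibberellin genes 7 were lower and 0 higher, but only 2 of these calls held in all 3 scalings, one of them that of the receptor gene gid1 (log2 change -1.84). For auxin, 23 of 44 genes were lower and 3 higher, for cytokinin 6 of 19 and 1, and for ethylene 4 of 8 and 0, among which 10, 4 and 2 lower calls held in all 3 scalings. The lower share was 55% for abscisic acid, 70% for gibberellin, 52.3% for auxin, 31.6% for cytokinin and 50% for ethylene. Of all genes, 46.1% were lower. With centred values the lower and higher genes were 10 and 8 for auxin, 4 and 6 for cytokinin, 2 and 1 for ethylene and 2 and 2 for gibberellin. Without RR Fe replicate 3, 10 auxin, 2 cytokinin and 1 gibberellin gene were lower. The higher cytokinin gene was OsCKX5 of the cytokinin oxidases (7.86, 2.05 and 4.64 FPKM in BR, against 0.161, 0 and 0.179 FPKM in RR).

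The remaining lists had calls on both sides or were small. Of 21 cellulose synthase and related genes 5 were higher and 6 lower (23.8% and 28.6%, where 8.62% and 46.1% of all genes were). With centred values it was 9 and 3, and without RR Fe replicate 2 or 3 it was 1 and 3. The related gene OsCslA4 had 7.32, 6.23 and 9.6 FPKM in BR, against 0.127, 0.128 and 0.0523 FPKM in RR (log2 change 2.97, limma adjusted p = 6.28e-06). Of 13 aquaporin genes 1 was higher and 6 lower (46.2%, close to the 46.1% of all genes), against 5 and 4 with centred values and 0 and 3 without RR Fe replicate 3. Among the lower ones was OsTIP2;2 of the vacuolar membrane, with 0.403, 0.674 and 0.0306 FPKM in BR, against 21.5, 54.3 and 112 FPKM in RR (log2 change -5.28). Of 16 bZIP factors 2 were higher and 5 lower (31.2%, under the 46.1% of all genes), with 3 and 2 for centred values, 3 and 10 without RR Fe replicate 1 and 2 and 2 without RR Fe replicate 3. Of 5 NAC factors 1 was higher and 1 lower (OsNAC6, log2 change -2.6), of 5 WRKY factors 0 and 2, and of 4 chitinase genes 0 and 1. Their lower shares were 20%, 40% and 25%, under the 46.1% of all genes. Their higher shares were 20%, 0% and 0%, where 8.62% of all genes were higher. The WRKY factors were 0 and 1 with centred values and without RR Fe replicate 2 or 3, 0 and 4 without RR Fe replicate 1 and 0 and 5 without BR Fe replicate 1. That chitinase gene, OsChia1a, had 0.0996, 0.339 and 0.215 FPKM in BR, against 2.91, 144 and 51.7 FPKM in RR, and lost its call without RR Fe replicate 2 or 3.

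Over the 27 lists, 417 of 646 member genes reached the minimum FPKM and were tested, and 66 were higher in BR and 165 lower (15.8% and 39.6%, where 8.62% and 46.1% of all genes were). With centred values 137 were higher and 96 lower (32.9% and 23%, where 24.3% and 18.5% of all genes were), so the balance of the sides turned, as it did with quantile normalization (131 and 106). Without RR Fe replicate 3 it was 30 and 82.

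**Figure D4:**
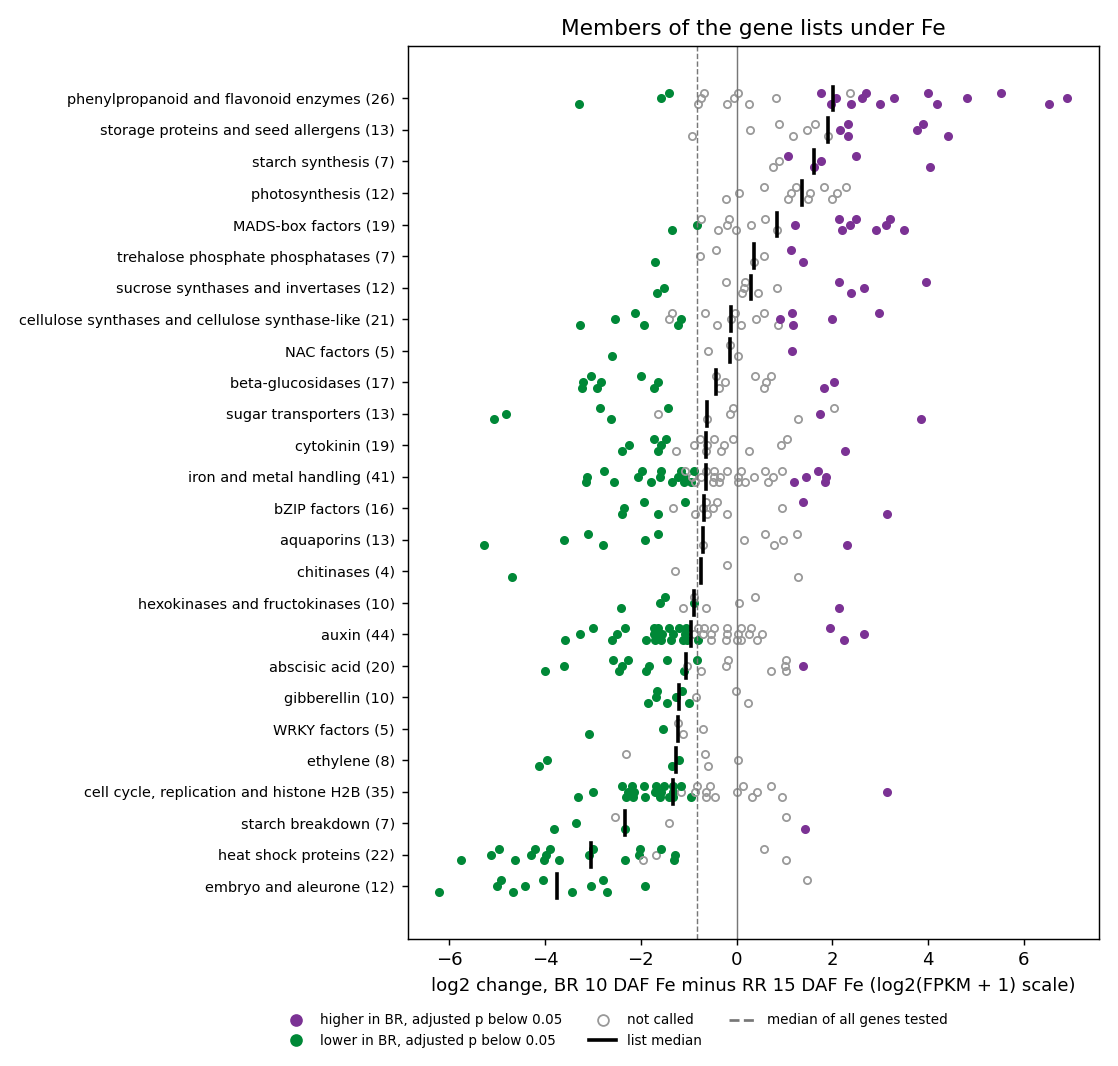
log2 change (BR Fe minus RR Fe) of each tested member of the lists with at least 3 tested genes, 1 point a gene, filled where the adjusted p was below 0.05, with the number of tested genes in brackets. The list medians, drawn as bars, run from 2.02 for phenylpropanoid and flavonoid enzymes to -3.74 for embryo and aleurone genes, and the dashed line marks the median of all genes at -0.83.

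Genes with qPCR primers, 9 in all, were read in the same fit. LOC4340373 had 18.4, 23.8 and 22.6 FPKM in BR, against 0.293, 0.247 and 0.567 FPKM in RR (log2 change 4.04, limma adjusted p = 1.41e-06), and LOC4333312 had 9.35, 6.39 and 7.16 FPKM in BR, against 1.15, 0.0505 and 0.423 FPKM in RR (log2 change 2.53). LOC4343325 had 2.39, 3.05 and 1.87 FPKM in BR and was listed at 0 in all 3 RR libraries. LOC4343353 and LOC4332719 were higher in BR too (limma adjusted p = 0.00308 and 0.00689), and both lost their call without RR Fe replicate 3, the second also without RR Fe replicate 2. LOC4341944 was far lower in BR, with 0.403, 0.463 and 0.506 FPKM, against 46.9, 2120 and 735 FPKM in RR (log2 change -8.18, limma adjusted p = 6.39e-05). LOC4330775 had 0.432, 2.81 and 0.747 FPKM in BR, against 1.32, 27.4 and 14.4 FPKM in RR (limma adjusted p = 0.00617), and its call was lost with centred values (0.0658) and without RR Fe replicate 2 or 3. The groups overlapped for LOC4330775 as well as for LOC107276307 and LOC4336505, which did not pass (limma adjusted p = 0.896 and 0.419).

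The same contrast was read between the control libraries. At the DEG thresholds 789 genes were higher in BR than in RR under control (4.6%) and 3053 were lower (17.8%), around a median of -0.506. The balance turned here too, with 1468 higher and 966 lower for centred values (8.57% and 5.64%) and 1365 and 1286 with quantile normalization (7.96% and 7.5%). Of the 961 genes higher in BR under Fe, 521 (54.2%) were also higher under control, which is 66% of the 789. Of the 5282 lower ones, 2632 (49.8%) were also lower under control, or 86.2% of the 3053. In 0 genes did the 2 calls have opposite directions. With centred values 1228 genes were higher and 830 lower in both contrasts, and with quantile normalization 1142 and 1060, with 0 and 1 genes in opposite directions. OsCHS1 had 185, 97.1 and 213 FPKM in BR controls, against 6.68 and 4.3 FPKM in RR controls (log2 change 4.63, limma adjusted p = 2.31e-06). The ANS gene LOC4325716 had 51.1, 13.4 and 21.7 FPKM in BR controls and was listed at 0 in both RR controls. NewGene_3345 had 1.41, 0.0849 and 0 FPKM in BR controls, against 22400 and 17300 FPKM in RR controls.

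At an adjusted p below 0.05, where 7.2% of genes were higher and 31% lower under control (14.8% and 10.7% with centred values, 12.9% and 13.7% with quantile normalization), the phenylpropanoid and flavonoid list had 13 genes higher and 2 lower, with a median of 1.3. MADS-box factors had 8 higher and 0 lower, embryo and aleurone genes 1 and 8, and heat shock genes 1 and 12. With centred values these 4 lists had 13 and 2, 12 and 0, 1 and 7, and 1 and 11. The starch synthesis list had 0 higher and 0 lower of 7, with a median of 0, and the storage proteins 2 higher and 0 lower of 13 (0 and 0 with quantile normalization). OsGBSS1, for example, had 1610, 1630 and 1550 FPKM in BR controls, against 1530 and 1300 FPKM in RR controls. Storage protein and seed allergen genes held 21.9% and 28.2% of the summed FPKM in the RR controls, a range that includes the 24.6% of RR Fe replicate 1 and lies above RR Fe replicates 2 and 3. The difference between the Fe and control contrasts was tested gene by gene. No list had a gene past an adjusted p of 0.05 in limma (0 of 417), and the counts at an unadjusted p below 0.05, which 11.4% of all genes had, are given as a description. They were 4 of the 7 starch synthesis genes, 11 of the 26 phenylpropanoid and flavonoid genes, 2 of 4 chitinase genes and 2 of 5 NAC factors. Sugar transporters had 4 of 13, and sucrose synthases and invertases 3 of 12. Storage proteins had 2 of 13, photosynthesis 0 of 12, bZIP factors 0 of 16 and ethylene 0 of 8. The smallest adjusted p was 0.0964, for OsCslA4 and for the CHI gene LOC4351321, whose control values were 13.1, 6.36 and 11.2 FPKM in BR, against 2.73 and 1.49 FPKM in RR.

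**Figure D5:**
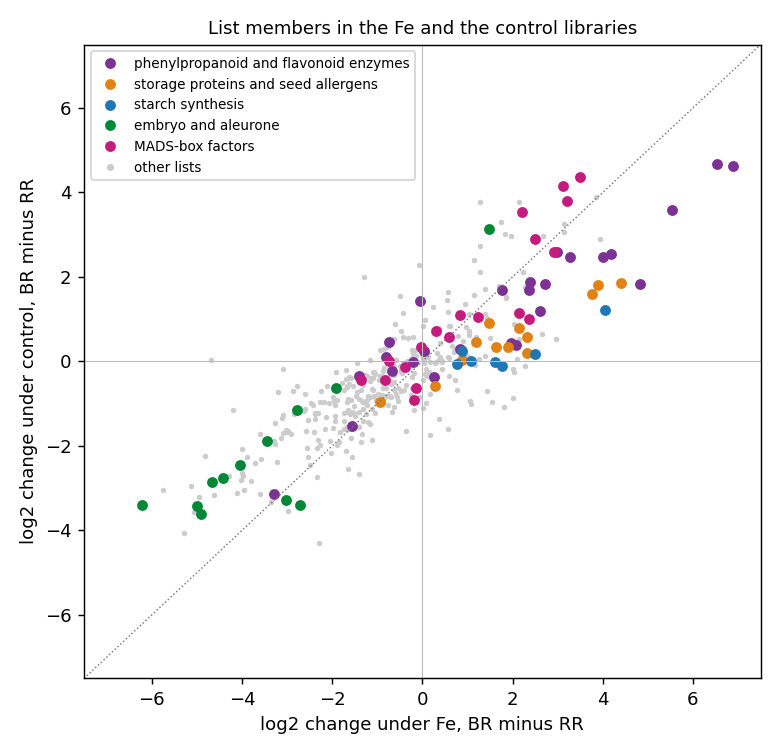
log2 change (BR minus RR) of the tested list members in the Fe libraries on the horizontal axis and in the control libraries on the vertical axis, with 1 point a gene in a list and a dotted line where both are equal. Most starch synthesis and storage protein genes lie to the right of the line, with changes of up to 4.04 and 4.41 under Fe, and MADS-box genes lie on both sides of it.

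Over all genes, the difference between the Fe and control contrasts passed the DEG thresholds for 1 gene (0.00583% of all tested), and 1953 genes (11.4%) had an unadjusted p below 0.05. That gene, NewGene_369, had 6.83, 9.47 and 8.29 FPKM in BR Fe grains, against 0, 0.0836 and 0 FPKM in RR Fe grains. In the controls it had 0.247, 0 and 0.489 FPKM in BR and was listed at 0 in both RR libraries. Among these groups only the BR Fe libraries were above an FPKM of 1. Its log2 change was 3.15 under Fe (limma adjusted p = 2.89e-07) and 0.3 under control (limma adjusted p = 0.325), a difference of 2.85 (limma adjusted p = 0.00473). The number of genes with such a difference was 540 without RR Fe replicate 1 (156 higher and 384 lower), 5 without BR Fe replicate 2, 2 without BR control replicate 1 and 0 without RR Fe replicate 2, RR Fe replicate 3, RR control replicate 2 or RR control replicate 3.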

How the data were processed

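Grain RNA of 6 Fe libraries (3 of BR at 10 DAF and 3 of RR at 15 DAF) was compared, with the 5 control libraries of the same days beside them, in a model of all 17 libraries. The deposited values are FPKM per gene and library. According to the study's methods, the authors aligned clean reads to the IRGSP-1.0 rice reference with HISAT2 and assembled them with StringTie, and tool versions and strand settings are not given in the sources used here. FPKM are scaled by library, so a few abundant transcripts lower the values of all others. They are no counts, and DESeq2, which the study used, was not run. At a tolerance of 0.001 log2, at most 9 of 4336 low genes shared a ratio between BR Fe replicates 1 and 2, so no read step was recovered and depth is unknown.

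Values were analysed as log2(FPKM + 1) with limma 3.58.1 in R 4.3.3: 6 group means, a variance factor per group (arrayWeights; RR Fe at 15 DAF had the smallest weight, 0.4), eBayes with trend, two-sided tests, and Benjamini-Hochberg adjustment over 17138 genes. A fold change on this scale understates the change of low genes. The thresholds were an adjusted p of 0.01 with a 1.5-fold change for DEGs and an adjusted p of 0.05 for list members and single genes. The script was tested on simulated data. Genes have a short name in 2847 of 27464 IDs found in the reference table, so the 27 lists were made by short name and the study's enzyme names. Pigment regulators and glycosyltransferases could not be matched. Nor could genes for dihydroflavonol reductase, the flavonoid hydroxylase F3'H, anthocyanidin reductase and leucoanthocyanidin reductase. Peroxidases had 1 tested gene and are not described. Members and lists were chosen with earlier results of these data known, and some lists overlap with those of that earlier work.

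Named genes are the 10 named genes with the largest change each way without overlap, the 2 largest DEGs each way, pigment genes with an FPKM of at least 10 in any of the 6 libraries, from each other list the 4 with the smallest p, the 9 qPCR genes, and genes past the DEG thresholds in the difference of contrasts. List members outside this rule were named after their values were seen. Each result was also computed after centring libraries on their medians, with quantile normalization, with the replicate number as a block, with equal weights, in a model of only the compared libraries, with a pseudocount of 0.1, with the FPKM minimum at 5 or absent, at 2 other thresholds, and without each library in turn. RR Fe replicates 2 and 3 left out together, the counts over all 3 scalings, and the scalings of the control list counts and of the genes called in both contrasts, were added after the data were seen. RR control replicate 1 at 15 DAF is not analysed here.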

Additional observations from a re-analysis of the deposited data

Results flagged for a closer look

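NewGene_369 differed between the contrasts under Fe and under control, with a gap of 2.85 in log2 change (limma adjusted p = 0.00473). It was at an FPKM of 6.83 to 9.47 in BR Fe grains, 0 to 0.0836 in RR Fe grains, 0 to 0.489 in BR control grains and 0 in both RR control grains, and the table holds no annotation for it.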

How the results depend on the processing

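Of 1922 pairs of a named gene and an alternative, 1777 kept direction and side of the threshold, 100 lost the call, 13 gained it and 32 changed sign. The DEG number under Fe (6243) became 9373 at an adjusted p of 0.05 with no fold minimum, 2560 at 4-fold, 2720 without RR Fe replicates 2 and 3 together, and 941 to 9745 with 1 library left out. Under control (3842) it became 2434 with centred values (1468 higher and 966 lower), 1830 in a model of only the compared libraries, 6541 at an adjusted p of 0.05 and 1134 at 4-fold, and 2210 to 3979 with 1 library left out. The difference between the contrasts (1 gene) was called for 0 genes with a pseudocount of 0.1, an FPKM minimum of 5, only the compared libraries, or RR Fe replicates 2 and 3 left out together, and for 0 to 540 with 1 library left out. Called list genes (231) were 112 to 288 with 1 library left out. The cause was not tested.

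The replicate numbers did not pair the libraries, as residuals of same-numbered BR and RR Fe libraries correlated at 0.0638, -0.0106 and -0.0859. With the replicate block 5832 genes passed under Fe (945 higher and 4887 lower), 3903 under control and 2 in the difference, and 227 list genes were called.

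Among genes without a call, the sign changed under centred values, quantile normalization and RR Fe replicates 2 and 3 left out together, in that order, to 0.16, 0.14 and 0.88 for Os4CL3, 0.81, 0.83 and 1.35 for LOC107276307 (0.05 with a pseudocount of 0.1), 0.23, 0.26 and 0.70 for Os4CL5, 0.54, 0.57 and 0.55 for LOC4336505, 0.70, 0.64 and 1.01 for OsCAD1, and 0.85, 0.87 and 0.95 for OsHCT2. With 1 library left out the log2 changes ran from -0.82 to 0.39 for LOC107276307, -1.36 to 0.21 for Os4CL5, -0.83 to 0.04 for LOC4336505, -0.82 to 0.22 for OsCAD1, -0.56 to 0.57 for OsHCT2, -0.65 to 0.43 for the PAL gene LOC4330036, and -0.10 to 0.62 for the lyase gene LOC4330034. With RR Fe replicate 1 as the only RR library, the positive changes of ALK, GLUB-2 and Maltase became -0.37, -0.24 and -0.49.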
